A study of Mus musculus with 2 samples.

Results

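The cell cycle machinery of embryonic day 9.5 (E9.5) mouse primordial germ cells (PGCs), the founder cells of eggs and sperm, was described from 58 genes for cyclins, cyclin-dependent kinases (CDKs), their inhibitors and the regulators of mitosis. A list of 60 symbols was set against the 18877 rows of the expression table by exact symbol. Cdkn2a and "Geminin" had no row and were not analysed here, and geminin was measured under its gene symbol, Gmnn. The 58 genes were divided by function into 23 that act at the G1/S transition and 32 that act in G2 and mitosis (G2/M), with Cdk7, Cks1b and Gmnn left in neither arm. Cks2, a relative of Cks1b, was placed in the G2/M arm.

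The study measured RNA from E9.5 PGCs of strain C57BL6, isolated from untreated embryos with an antibody against SSEA1, a surface sugar antigen of early germ cells. There was 1 group of 2 biological replicates, so no genotype or treatment was compared. The methods describe the embryos as female and name a low-input full-length cDNA protocol, whereas the labels name another library kit. The methods sort PGCs either by antibodies against CD61 and SSEA1 in a flow cytometer or by SSEA1 alone on magnetic beads. Either way selects by surface antigens, and the libraries can hold RNA of other cells.

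Progress through the cell cycle is driven by CDKs, which are active only when bound to a cyclin. D-type and E-type cyclins open the way into S phase by inactivating the retinoblastoma family of pocket proteins and so releasing E2F transcription factors. A-type and B-type cyclins with Cdk1 drive entry into mitosis, and the anaphase-promoting complex (APC/C) ends it by marking cyclin B and securin for destruction. Migrating mouse PGCs are known to pause in G2 soon after specification and then to divide repeatedly on the way to the gonad.

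Values are TPM, a relative abundance per base of gene length that allows levels of different genes to be compared within a library. Reads recovered from TPM and exon length summed to 15912470 for replicate 1 and 5458687 for replicate 2, so replicate 1 was the deeper library. The median number of reads per member was 708.5 (replicate 1) and 240.5 (replicate 2), compared with 71 and 24 over all genes. Where a pair of values follows, replicate 1 comes before replicate 2. Intervals given for single libraries are exact 95% Poisson intervals, which cover counting error only. With 1 group no test between conditions was possible, and differences between replicates describe these libraries. In bulk RNA a low level cannot be divided into fewer expressing cells and less RNA per cell, and cells in all phases are averaged.

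The germ cell identity of the libraries was examined by marker genes. All 8 PGC markers were at 1 TPM or more in each library, compared with 60.0% of all genes. They were led by Dppa3 at 5013 and 5075 TPM and Nanos3 at 473 and 453 TPM. Erythroid genes were also abundant, with 6 of 7 at 1 TPM or more in each library and a summed level of 4002 and 3780 TPM, and the embryonic globin Hba-x was the highest of them. Summed levels of the other lists were 19.4 and 9.53 TPM for 4 macrophage genes, 12.9 and 11.0 for 5 endothelial genes, 6.41 and 7.05 for 3 neural genes, 2.37 and 3.95 for 5 mesenchyme genes and 0 and 0.505 for 2 gut endoderm genes. Of these lists, Lum (1 of 5 mesenchyme genes) and Foxa1 (1 of 2 gut endoderm genes) were listed at 0 in both libraries, while Col3a1 was at 1.06 and 1.40 TPM and Foxa2 at 0 and 0.505 TPM. Embryonic erythroid precursors also divide, and the part of erythroid RNA in the values given here was not tested.

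Cell cycle genes were expressed above the typical gene. Of the 58 members, 54 had 1 TPM or more in each library, compared with 60.0% of all genes. Levels of 10 TPM or more in each library were found for 32 members, compared with 25.3% of all genes, and levels of 100 TPM or more for 11 members, compared with 6.10%. The median of the members on the log2(TPM + 1) scale was 3.98 and 3.96 (3.97 ± 0.0116, mean ± SD, n = 2), and the median of all genes was 1.89 and 1.85. Together the members made up 0.649% of all TPM in replicate 1 and 0.626% in replicate 2.

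**Figure D1:**
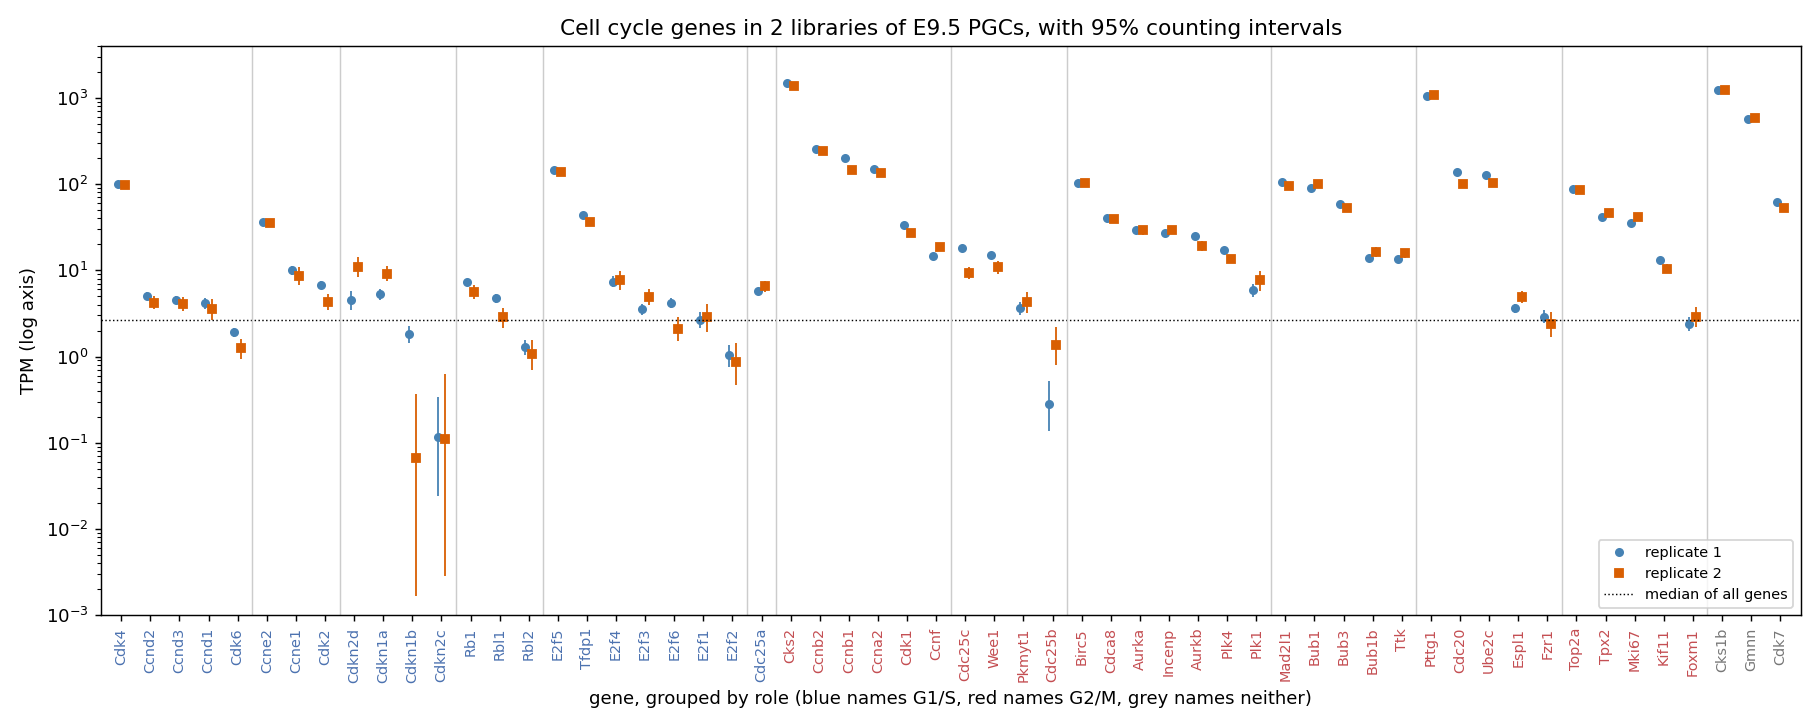
TPM (log axis) of 58 cell cycle genes in replicate 1 (circles) and replicate 2 (squares) of E9.5 PGCs, grouped by role, where vertical lines are 95% counting intervals and the dotted line is the median of all genes. Cks2, Cks1b and Pttg1 lie between 1058 and 1490 TPM in both libraries, whereas Cdkn2c lies lowest on average with a mean of 0.114 TPM.

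D-type cyclins, which link growth signals to the cycle, were at similar levels. All 3 were below the median of the members (14.8 and 14.6 TPM) and above that of all genes (2.71 and 2.61 TPM). Ccnd1 was at 4.18 TPM in replicate 1 and 3.56 in replicate 2, Ccnd2 at 5.09 and 4.23, and Ccnd3 at 4.50 and 4.09. Their order was not resolved: the ratio of Ccnd2 to Ccnd1 was 1.22 (counting interval 1.02 to 1.45) in replicate 1 and 1.19 (0.864 to 1.65) in replicate 2, and that of Ccnd2 to Ccnd3 was 1.13 (0.985 to 1.30) and 1.03 (0.802 to 1.33). The catalytic partners of these cyclins differed widely from each other. Cdk4 was at 101 and 97.6 TPM, while Cdk6, its closest relative, was at 1.90 and 1.24 TPM. Cdk4 thus exceeded Cdk6 by 53.3-fold in replicate 1 (46.9 to 60.8) and 78.7-fold in replicate 2 (60.4 to 104), and it exceeded each D-type cyclin by between 19.9-fold and 27.4-fold. The size of the ratio to Cdk6 rests in part on division by exon length (3249 bases for Cdk4 and 13989 for Cdk6). In reads Cdk4 was also the higher, at 3133 and 1060, compared with 253 and 58 for Cdk6. Of the exonic bases of Cdk4, 19.7% overlap Tspan31 on the opposite strand, and for Ccnd1 the overlap with LTO1 is 23.4%. Exonic overlap on the opposite strand was also found for Rbl2 (20.97%), Ccne2 (17.4%), Rb1 (14.9%) and Ccna2 (12.5%), and the sources used here do not say if reads were counted by strand.

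E-type cyclins, which bind Cdk2 to start DNA replication, were higher than the D-type cyclins. Ccne2 was at 36.7 and 35.5 TPM and Ccne1 at 9.998 and 8.65 TPM. The ratio of Ccne2 to Ccne1 was 3.67 (3.21 to 4.22) in replicate 1 and 4.11 (3.21 to 5.31) in replicate 2, so Ccne2 was the higher in both libraries beyond counting error. Their kinase Cdk2 was at 6.75 and 4.28 TPM. Cdc25a, the phosphatase that activates Cdk2, was at 5.68 and 6.52 TPM.

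CDK inhibitors had a median of 3.15 and 4.63 TPM, compared with 14.8 and 14.6 over all members and 2.71 and 2.61 over all genes. Of the 4 with a row, 2 were at 1 TPM or more in each library, compared with 60.0% of all genes. None was at 10 TPM or more in both, compared with 25.3% of all genes. Cdkn1a, which encodes p21, the inhibitor induced by p53, was at 5.30 and 9.15 TPM. Cdkn2d, an INK4 inhibitor of Cdk4 and Cdk6 (p19), was at 4.48 TPM with 67 reads in replicate 1 and 11.0 TPM with 58 reads in replicate 2. Both were thus higher in replicate 2, with counting intervals that did not overlap between the libraries (for Cdkn2d 3.47 to 5.69 and 8.37 to 14.2 TPM). Cdkn1b, which encodes p27, was instead lower there. It had 79 reads (1.83 TPM, 1.45 to 2.28) in replicate 1 and 1 read (0.0657 TPM, 0.00166 to 0.366) in replicate 2, a ratio of replicate 2 to replicate 1 of 0.0360 (0.000900 to 0.206). Cdkn2c, the INK4 inhibitor p18, rested on 3 reads in replicate 1 and 1 read in replicate 2 (0.117 and 0.111 TPM).

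Pocket proteins, which hold E2F target genes silent, were all below the median of the members (14.8 and 14.6 TPM). Rb1 and Rbl1 were above the median of all genes (2.71 and 2.61 TPM), and Rbl2 was below it. Rb1 was at 7.26 and 5.67 TPM, Rbl1 (p107) at 4.77 and 2.84, and Rbl2 (p130), the member most associated with quiescence, at 1.28 and 1.07 TPM. Rb1 was the highest and Rbl2 the lowest in both libraries, and in each library the counting intervals of these 3 genes did not overlap.

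Among E2F factors the repressor E2f5 stood out. It was at 145 and 137 TPM (141 ± 5.87, SD, n = 2), the highest of the G1/S arm. E2f4, the other repressor of the same subgroup, was at 7.38 and 7.69 TPM, so E2f5 exceeded it by 19.7-fold (16.8 to 23.1) and 17.8-fold (13.8 to 23.4). The activators of S-phase genes were far lower: E2f1 was at 2.67 and 2.85 TPM, E2f2 at 1.03 and 0.858, and E2f3 at 3.57 and 4.90. E2f6, a repressor that acts without pocket proteins, was at 4.18 and 2.11 TPM. Tfdp1, the partner that most E2F proteins need to bind DNA, was at 43.5 and 36.8 TPM.

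Ccnb2, Ccnb1 and Ccna2 were well above the median of the G2/M arm. Ccnb2 was at 255 and 241 TPM (mean 248 ± 10.4, SD, n = 2), Ccnb1 at 200.2 and 147 (174 ± 37.3), and Ccna2, which acts in S phase and at mitotic entry, at 149 and 136 (142 ± 9.53). Each of these 3 cyclins was above Cdk1, at 33.6 and 27.4 TPM, in both libraries. The ratio of Ccnb1 to Cdk1 was 5.97 (5.65 to 6.30) in replicate 1 and 5.38 (4.86 to 5.97) in replicate 2. In TPM, Ccnb2 exceeded Ccnb1 by 1.27-fold (1.23 to 1.33) and 1.63-fold (1.52 to 1.75). That order rests on division by exon length (1531 bases for Ccnb2 and 4217 for Ccnb1). In reads Ccnb1 was the higher, at 8026 and 2079, compared with 3714 and 1231 for Ccnb2. Of the 100-base windows of Ccnb1 transcripts, 14.9% occur in transcripts of 4 other genes, among them the pseudogene Ccnb1-ps, so reads of Ccnb1 may be lost or shared. Ccnf, which targets proteins for destruction in G2, was at 14.6 and 18.7 TPM.

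The CDK-binding Cks proteins were the most abundant members. Cks2 was at 1490 and 1389 TPM (1440 ± 71.7, SD, n = 2), and Cks1b at 1234 and 1242 TPM (1238 ± 5.28). In TPM, Cks2 exceeded Cks1b by 1.21-fold (1.18 to 1.24) in replicate 1 and 1.12-fold (1.07 to 1.17) in replicate 2. That order rests on division by exon length (692 bases for Cks2 and 1126 for Cks1b). In reads Cks1b was the higher, at 13210 and 4674, compared with 9803 and 3213 for Cks2. Of the windows of Cks2 transcripts, 23.8% are shared with 3 other genes. Gmnn, which encodes the replication licensing inhibitor geminin, was at 570 and 585 TPM, and Cdk7, the kinase that activates other CDKs, at 61.1 and 52.2 TPM.

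The switch that sets Cdk1 activity was at lower levels than Cdk1 itself. Wee1, a kinase that inhibits Cdk1, was at 15.0 and 10.8 TPM, and Pkmyt1, its membrane-bound relative, at 3.61 and 4.25 TPM. Of the phosphatases that remove these inhibitory marks, Cdc25c was at 18.2 and 9.25 TPM. Cdc25b was the lowest G2/M member, with 10 reads in replicate 1 (0.282 TPM, 0.135 to 0.519) and 17 in replicate 2 (1.36 TPM, 0.795 to 2.18). Cdc25c was lower and Cdc25b higher in replicate 2, so their ratio was 64.5 in replicate 1 and 6.78 in replicate 2. Cdc25c shares 12.7% of its exonic bases with Gm3550 on the opposite strand.

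Mitotic kinases and the chromosomal passenger complex, which corrects the attachment of chromosomes to the spindle, lay at intermediate levels. Birc5 (survivin) was the highest at 103 TPM in both libraries, followed by Cdca8 (borealin) at 40.9 and 39.5. Incenp, the scaffold of the complex, was at 26.7 and 29.7 TPM, and its kinase Aurkb at 25.1 and 19.2. The other Aurora kinase, Aurka, which builds the spindle poles, was at 29.6 and 29.2 TPM. Plk4, which starts the duplication of centrioles, was at 17.2 and 13.6 TPM. Plk1, the kinase that drives mitotic entry, was the lowest of this role at 5.84 and 7.62 TPM, and Aurka exceeded it by 5.08-fold (4.19 to 6.20) and 3.83-fold (2.86 to 5.22).

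Spindle checkpoint genes, which delay anaphase until all chromosomes are attached, were all at 10 TPM or more in each library, compared with 25.3% of all genes. Mad2l1 was at 105 and 94.5 TPM and Bub1 at 90.2 and 101. Bub3 followed at 58.7 and 52.4 TPM, Bub1b (BubR1) at 13.9 and 16.4, and the kinase Ttk (Mps1) at 13.4 and 15.7. Within the checkpoint the ratio of Bub1 to Bub1b was 6.51 (5.96 to 7.13) in replicate 1 and 6.17 (5.37 to 7.12) in replicate 2.

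Genes of anaphase and mitotic exit spanned a wide range, from a mean of 2.65 to 1074 TPM. Pttg1, which encodes securin, was at 1058 and 1089 TPM (SD 21.3, n = 2). Espl1, which encodes separase, the protease that securin holds inactive, was at 3.61 and 4.92 TPM. Securin transcripts thus exceeded separase transcripts by 293-fold (262 to 330) and 221-fold (187 to 263) in TPM. The size of that ratio rests in part on exon length (2000 bases for Pttg1 and 8749 for Espl1). In reads Pttg1 was also the higher, at 20124 and 7279, compared with 300 and 144 for Espl1. The APC/C activator of mitosis, Cdc20, was at 136 and 102 TPM, whereas Fzr1 (Cdh1), the activator of late mitosis and G1, was at 2.91 and 2.40 TPM, a ratio of 46.9 (39.1 to 56.6) and 42.3 (30.2 to 61.0). Ube2c, the ubiquitin-conjugating enzyme of the APC/C, was at 129 and 102 TPM, and 22.8% of its exonic bases overlap Tnnc2 on the opposite strand.

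Spindle and chromosome genes completed the arm. Top2a, the topoisomerase that untangles sister chromatids, was at 87.8 and 85.6 TPM. Tpx2, which nucleates spindle microtubules, was at 41.2 and 46.1 TPM, and the proliferation marker Mki67 at 35.2 and 41.8. Kif11, the motor that separates spindle poles, was at 13.0 and 10.4 TPM. Foxm1, a transcription factor of mitotic genes, was at 2.39 and 2.91 TPM, near the median of all genes (2.71 and 2.61 TPM).

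The G1/S and G2/M arms were then compared. The median of G2/M members was 5.02 and 4.93 on the log2(TPM + 1) scale (31.6 and 29.4 TPM), and that of G1/S members was 2.53 and 2.40 (4.77 and 4.28 TPM). The difference was 2.49 and 2.53 (2.51 ± 0.0227, mean ± SD, n = 2). That SD covers the libraries only and not the spread among genes. In replicate 1 the quartiles were 3.88 and 6.70 for G2/M members and 2.03 and 3.06 for G1/S members. A level above the G1/S median was found in 27 of 32 G2/M members in replicate 1 and 28 in replicate 2. Conversely, 4 of 23 G1/S members exceeded the G2/M median, and these were Cdk4, Ccne2, E2f5 and Tfdp1 in both libraries. Levels of 10 TPM or more in each library were found for 25 of 32 G2/M members and 4 of 23 G1/S members. Over all genes the share was 25.3%. The G2/M members at or below the G1/S median were Cdc25b, Foxm1, Fzr1 and Pkmyt1, with Espl1 in replicate 1 only. Genes were not treated as replicates, and the difference describes these lists. Exon lengths of the arms were close (medians 4341.5 bases for G2/M and 4709 for G1/S), and counted in reads with no division by length the difference was 2.49.

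**Figure D2:**
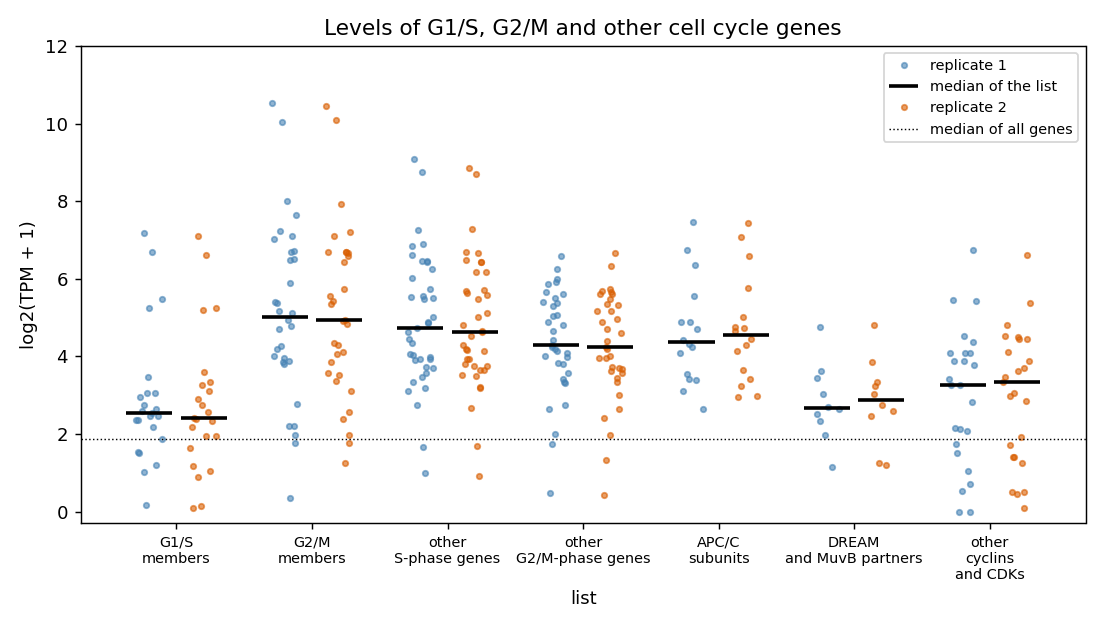
Levels as log2(TPM + 1) of the G1/S and G2/M members and of 5 lists of other cell cycle genes in replicate 1 (left points) and replicate 2 (right points) of each list, where black bars are list medians and the dotted line is the median of all genes. The medians of G1/S members are 2.53 and 2.40, compared with 5.02 and 4.93 for G2/M members.

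Other genes of the cell cycle did not divide in the same way. S-phase genes outside the list, which replicate DNA or supply nucleotides, had a median of 4.72 and 4.62 over 39 genes. Of these, 38 were at 1 TPM or more in each library, compared with 60.0% of all genes. Their highest were Pcna at 504 ± 54.2 TPM, Tipin at 425 ± 12.1 and Rrm2 at 153 ± 3.57, and their lowest Chaf1b at 0.953 ± 0.0796, Uhrf1 at 2.20 ± 0.0697 and Cdc6 at 5.58 ± 0.281 (SD, n = 2). Other G2/M-phase genes had a median of 4.29 and 4.25 over 35 genes, from Smc4 at 97.8 ± 3.50, Ndc80 at 77.0 ± 2.57 and Lbr at 55.1 ± 10.4 TPM to Hjurp at 2.97 ± 0.0865, Gas2l3 at 1.94 ± 0.578 and Psrc1 at 0.381 ± 0.0360 TPM. The difference from the S-phase genes (G2/M-phase minus S-phase median) was -0.43 and -0.37. The higher level of G2/M over G1/S members was thus not seen between these lists of S-phase and G2/M-phase genes. These lists leave out the members, and the S-phase genes are not counterparts of the G1/S arm. The comparison therefore cannot say what sets the arms apart.

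APC/C subunits and regulators had a median of 4.36 and 4.54. All 16 were at 1 TPM or more in each library, compared with 60.0% of all genes. The highest were Anapc10 at 174 ± 0.848, Anapc13 at 120 ± 18.9 and the APC/C inhibitor Fbxo5 (Emi1) at 87.4 ± 10.1 TPM, and the lowest were Anapc7 at 9.56 ± 1.62, Anapc16 at 7.18 ± 0.642 and Ube2s at 6.10 ± 1.16 TPM (SD, n = 2). A list for the DREAM and MuvB complexes, which switch cell cycle promoters off in quiescence and on in mitosis, was lower at 2.66 and 2.88. It also held the E2F repressors E2f7 and E2f8, so its median is not that of the complexes alone. In that list Lin37 was at 26.6 ± 0.818, Rbbp4 at 11.7 ± 2.55 and Mybl2 at 9.93 ± 2.08 TPM. Mybl1 was at 4.64 ± 0.136, Lin9 at 2.13 ± 1.09 and E2f7 at 1.27 ± 0.0404 TPM. Other cyclins and CDKs had a median of 3.27 and 3.34 over 25 of 29 genes. At 1 TPM or more in each library were 20 of the 25, compared with 60.0% of all genes. The cyclin of the CDK-activating kinase, Ccnh, was highest at 102 ± 6.07 TPM, followed by Ccni at 41.1 ± 0.815 and Ccnc at 34.9 ± 11.2. The mitotic cyclin Ccnb3 was lowest, with 0 reads in replicate 1 and 1 read in replicate 2, after Cdk14 at 0.419 ± 0.0542 and Ccnj at 0.532 ± 0.170 TPM.

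Promoter sequences, which come from a reference genome and hold nothing measured in these libraries, were examined as a further description of the genes. Mitotic genes are known to carry a cell cycle genes homology region (CHR), a short element near the start site through which the DREAM and MuvB complexes act, often beside CCAAT boxes bound by NF-Y. Promoter windows of 250 bases before to 50 after a transcription start, from RefSeq on GRCm38.p6, were found for 43 of 58 members. They were searched on both strands for the CHR letters TTTGAA or TTCGAA, for the E2F site letters TTTGGCGC or TTTCGCGC, and for CCAAT.

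The CHR letters were common in the G2/M arm. They were found in 17 of 24 G2/M genes (18 of 25 windows, 72%), compared with 3 of 17 G1/S genes (3 of 23 windows, 13.0%) and 19.2% of all 32851 windows. The share was 17.5% among 3021 genes with 10 TPM or more in each library. In the stretch from 100 bases before the start to 50 after it, 17 of 25 G2/M windows held them, compared with 8.59% of all windows and 7.68% of the genes with 10 TPM or more. The G1/S genes with a match were E2f2, E2f3 and Rbl2. Every one of the 17 G2/M genes with a CHR match also held CCAAT in its window, and so did 2 of the 3 G1/S genes with a match. The share of all windows that hold both was not computed. CCAAT was found in 20 of 24 G2/M genes (21 of 25 windows) and 8 of 17 G1/S genes (9 of 23 windows). It was in 37.4% of all windows and 45.6% of the genes with 10 TPM or more, so the G1/S share was near these. The E2F letters were found in 4 of 17 G1/S genes, namely Cdc25a, E2f2, Rbl1 and Tfdp1, in 1 of 24 G2/M genes, Cdk1, and in 0.813% of all windows (2.52% of the genes with 10 TPM or more).

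To show the arrangement, the bases from 100 before the start to 20 after it are given for 6 G2/M genes with a CHR match close to the start and for 2 G1/S genes with an E2F match, chosen after the matches were seen to show genes of high and low level. Capitals mark CHR letters (TTTGAA, or TTCAAA on the other strand), CCAAT (or ATTGG on the other strand) and E2F letters, and each line reads 5′ to 3′ along the gene.
Ccnb2 (chr9:70421535-70421654, minus strand): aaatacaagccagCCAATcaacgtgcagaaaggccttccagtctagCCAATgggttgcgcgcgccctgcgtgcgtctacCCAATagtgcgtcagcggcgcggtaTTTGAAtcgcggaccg
Cdk1 (chr10:69352893-69353012, minus strand): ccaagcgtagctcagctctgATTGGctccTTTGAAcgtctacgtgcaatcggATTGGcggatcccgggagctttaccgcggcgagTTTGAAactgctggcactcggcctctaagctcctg
Cdc20 (chr4:118437324-118437443, minus strand): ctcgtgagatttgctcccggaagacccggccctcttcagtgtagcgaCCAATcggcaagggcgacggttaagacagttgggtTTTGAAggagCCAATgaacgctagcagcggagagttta
Top2a (chr11:99024170-99024289, minus strand): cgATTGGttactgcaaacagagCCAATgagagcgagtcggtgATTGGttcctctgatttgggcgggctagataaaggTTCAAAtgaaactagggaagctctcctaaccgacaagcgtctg
Ube2c (chr2:164769829-164769948, plus strand): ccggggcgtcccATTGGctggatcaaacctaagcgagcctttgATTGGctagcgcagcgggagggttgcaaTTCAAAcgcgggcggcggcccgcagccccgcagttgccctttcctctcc
Espl1 (chr15:102296193-102296312, plus strand): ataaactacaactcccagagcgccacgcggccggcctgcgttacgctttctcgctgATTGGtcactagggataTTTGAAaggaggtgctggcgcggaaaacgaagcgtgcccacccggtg
Rbl1 (chr2:157204515-157204634, minus strand): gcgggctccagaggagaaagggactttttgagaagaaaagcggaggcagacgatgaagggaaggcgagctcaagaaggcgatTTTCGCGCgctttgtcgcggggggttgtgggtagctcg
Cdc25a (chr9:109875479-109875598, plus strand): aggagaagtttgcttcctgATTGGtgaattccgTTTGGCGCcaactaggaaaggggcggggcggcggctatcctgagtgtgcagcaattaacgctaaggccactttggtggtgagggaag

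In these stretches a CHR match of each G2/M gene lies near the start site with at least 1 CCAAT box before it. A match did not go with a higher level within the G2/M arm. The 17 genes with a CHR match had medians of 5.11 and 4.92 on the log2(TPM + 1) scale, and the 7 without had 6.72 and 6.70. Those 7 were Cks2, Pttg1, Ccnb1, Birc5, Mad2l1, Plk4 and Fzr1. Of the printed genes, Ccnb2 at 248 TPM and Espl1 at 4.27 TPM both held a match. A match is a description of letters, and no match says only that these letters were not in the window.

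**Figure D3:**
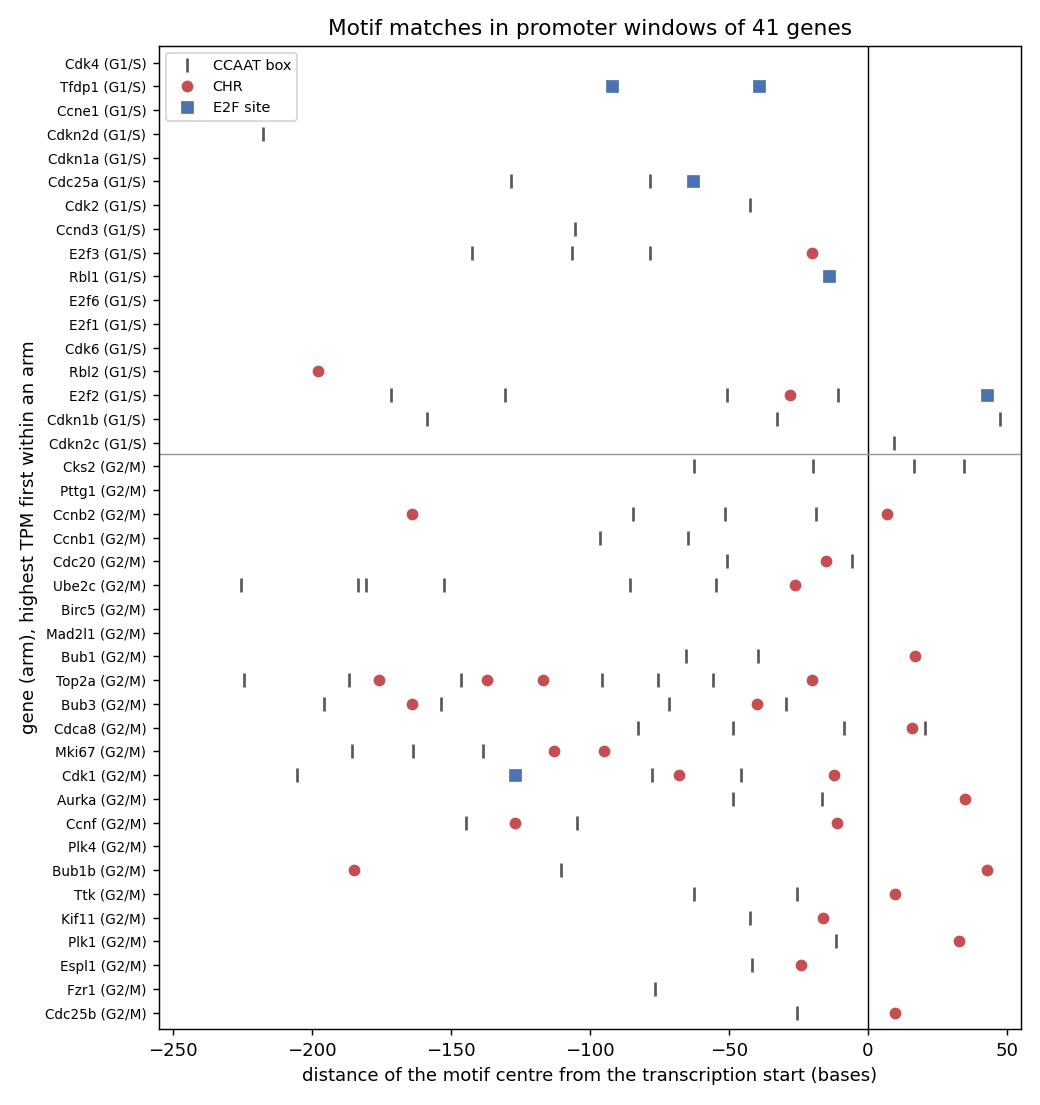
Distance in bases of CHR (circles), E2F (squares) and CCAAT (vertical ticks) matches from the transcription start, for 17 G1/S and 24 G2/M genes with a promoter window, ordered by TPM within each arm. CHR matches gather near the start in 17 G2/M genes and are found in 3 G1/S genes, and Bub3 and Tfdp1, with 2 overlapping windows each, show the same site once for each start.

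Agreement between the libraries was examined for each member. More than a 2-fold difference on the log2(TPM + 1) scale was found in 2 of 58 members, compared with 10.2% of all genes. Cdkn2d was higher in replicate 2 (1 member, compared with 4.31% of all genes) and Cdkn1b was lower (1 member, compared with 5.89%). Both encode CDK inhibitors, and both rest on fewer than 100 reads in each library. Cdc25b differed by 4.83-fold as a plain ratio (2.09 to 11.8), which the pseudocount of 1 reduced to 0.88 on the log2 scale.

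Smaller differences were resolved by counting for many members, since most had deep counts. The counting interval of the fold lay above 1 in 12 of 58 members and below 1 in 21, compared with 16.6% and 22.4% of the 17282 genes with a matched length and at least 1 read. At a total of 500 reads or more over the libraries, it lay above 1 in 7 of 36 members and 18.1% of all such genes, and below 1 in 16 members and 36.0% of such genes. Without regard to the interval, 37 of 58 members were lower in replicate 2, compared with 51.3% of all genes, and so were 22 of the 32 members with 10 TPM or more, compared with 56.2%. The shares of members were thus near the background or somewhat above it in the direction of lower values in replicate 2. In the G2/M arm the largest of these by ratio were Cdc25c, at 0.508 of its level in replicate 1 (0.424 to 0.603), Wee1 at 0.724 (0.590 to 0.883), Ccnb1 at 0.737 (0.702 to 0.773) and Cdc20 at 0.745 (0.681 to 0.813). Among G2/M members whose interval lay above 1, the highest after Cdc25b were Mki67 at 1.19 (1.12 to 1.27), Ccnf at 1.29 (1.15 to 1.43) and Espl1 at 1.36 (1.11 to 1.67). The median difference (replicate 2 minus replicate 1) was -0.043 over G2/M members and -0.13 over G1/S members, compared with -0.013 over all genes.

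**Figure D4:**
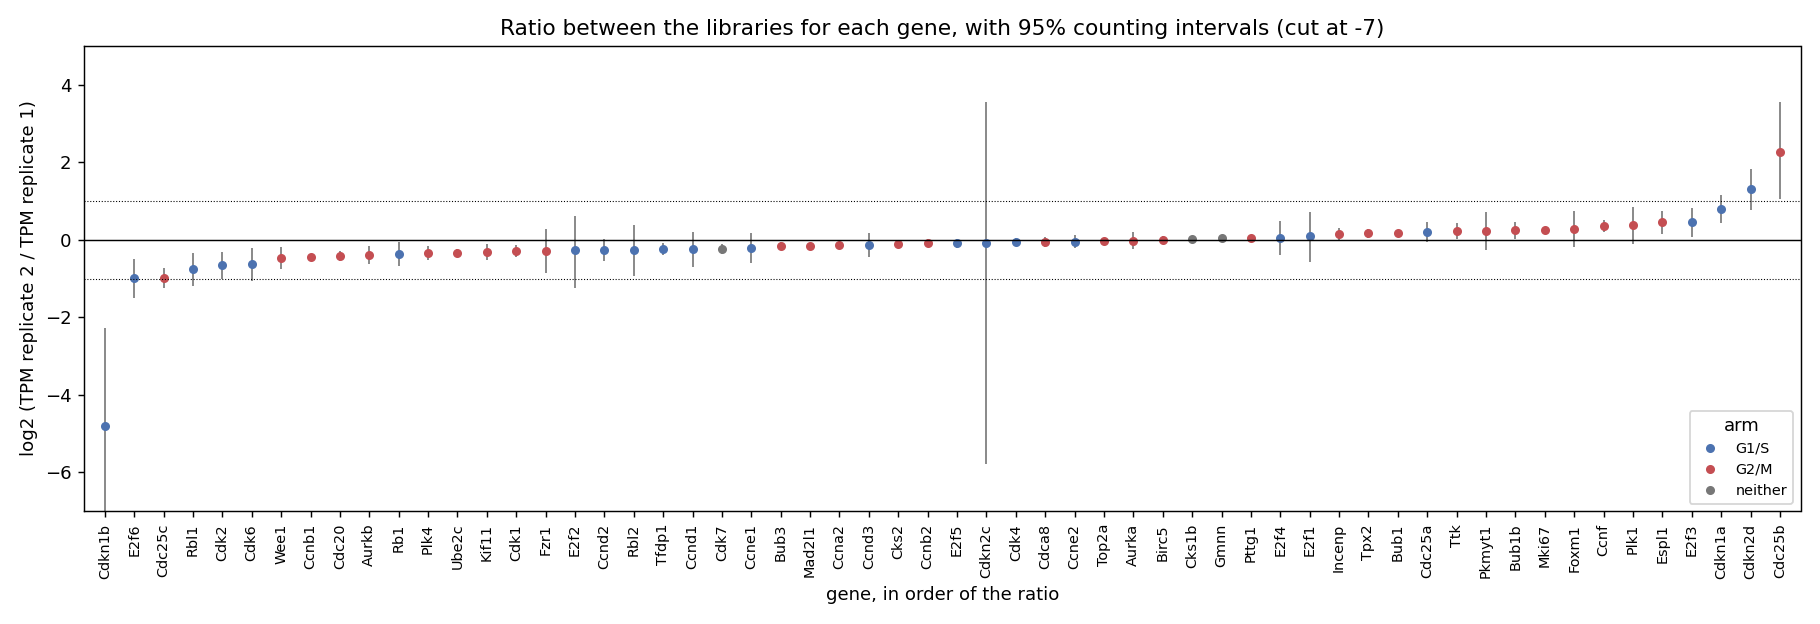
Ratio of TPM in replicate 2 to replicate 1 (log2 axis) for 58 members in order of the ratio, with 95% counting intervals, where dotted lines mark 2-fold and the interval of Cdkn1b runs below the axis. Cdkn1b at the left end rests on 1 read in replicate 2, and Cdkn2d and Cdc25b lie above 2-fold at the right end.

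The highest members were short genes. Cks2, Cks1b, Pttg1 and Gmnn have between 692 and 2000 exonic bases, compared with a median of 4341.5 over the 58 members. Spearman's rho between exon length and mean TPM was -0.41 over the 58 members and 0.08 over 18748 genes, as a description across genes of the same libraries. The counts of these 4 genes were also high before division by length, at 7934 to 20124 reads in replicate 1 and 2864 to 7279 in replicate 2.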

How the data were processed

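RNA was measured in 2 libraries of E9.5 PGCs. The authors aligned reads to mm10 with Hisat2, counted them per gene with featureCounts and deposited TPM for each gene symbol. The submitters' processing notes also list Bowtie2, RSEM and R 3.4.2 among others, with no role. Annotation, strand setting and versions of the aligner and counter are not given in the sources used here. No column of the table belonged to another sample.

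Members and lists were chosen with earlier results of these data known. Values were analysed as log2(TPM + 1), which understates differences between low genes. Symbols were matched to GENCODE M21 (GRCm38), and TPM times summed exon length gave whole multiples of 1 amount per library, taken as 1 read: 96.7% and 95.8% of values under 50 reads came within 0.02 of a whole number. Reads of Cdkn1a, Ccnf, Cdc25c, Pkmyt1, Incenp and Kif11 did not, so their intervals are approximate. Ratios between libraries or genes have exact conditional binomial 95% intervals, which cover counting error only. Ratios between genes also depend on the exon lengths used. Every member with a row was named, and of each other cell cycle list the 3 highest and 3 lowest. Reads shared with other genes were judged by exact 100-base windows of GENCODE transcripts. Read recovery and intervals were tested on simulated data. Alternatives were another pseudocount, filters, rescaling, other arms and leaving out each replicate. The CCAAT search, the reads-only comparison, the read filter and the comparisons of means and of members with few shared windows were chosen after seeing the data. Protein motifs were not analysed here. Python 3.11.15, numpy 2.4.6, pandas 2.3.3, scipy 1.17.1 and matplotlib 3.10.9 were used.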

Additional observations from a re-analysis of the deposited data

How the results depend on the processing

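The difference between G2/M and G1/S medians (2.51) stayed positive under every alternative run. It was 2.73 with a pseudocount of 0.1, 2.38 when genes under a mean of 1 TPM were left out, 2.54 after rescaling over genes with at least 200 exonic bases, 2.40 without CDK inhibitors and pocket proteins, 2.68 without Plk4, Bub3, Fzr1 and Wee1, 2.40 among members with at most 10% of windows shared and 2.29 as a difference of means. Leaving out a replicate gave 2.49 to 2.53. The median of members (3.97) was 3.89 with the pseudocount of 0.1, 4.22 with the filter and 4.18 after rescaling, which shifts log2(TPM) of all genes by 0.22 in replicate 1 and 0.23 in replicate 2, and log2(TPM + 1) of low genes by less. For the other cell cycle lists pooled (4.11) these were 4.03, 4.16 and 4.32. Members detected numbered 39 at a TPM of at least 5, compared with 35.5% of all genes. The members over 2-fold between libraries (2) were 3 with the pseudocount of 0.1 (Cdkn1b, Cdkn2d and Cdc25b, compared with 23.7% of genes), 1 with the filter on mean TPM (10.3% of the genes kept) and 1 with at least 100 reads (2.59% of the genes kept), Cdkn2d in both filtered cases. No paired analysis was possible because all samples belong to 1 group. The protein motif search was not run. Cdkn1b (79 and 1 reads), Cdkn2c (3 and 1) and Cdc25b (10 and 17) are limited by depth.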

Other observations

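The CDK-activating kinase was represented by all its subunits: Ccnh at 102 ± 6.07 TPM, Cdk7 at 56.7 ± 6.31 TPM and Mnat1, the assembly factor, at 20.3 ± 0.842 TPM (SD, n = 2). Mnat1 was chosen after its values were seen. Ccna1, the A-type cyclin known from male meiosis, had 0 reads in replicate 1 and 10 reads in replicate 2 (1.63 TPM), whereas Ccna2 had 5789 and 1852 reads. Ccna1 was likewise chosen after its values were seen.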
